A study of Mus musculus with 14 samples.

Results

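The genes described here form the insulin, growth hormone and insulin-like growth factor (IGF) axis of the liver: Insr, Irs1, Irs2, Ghr, Socs2, Igf1, Igfals, Igfbp1, Igfbp2 and Igfbp4. They were taken as every probe set on the array whose platform annotation gave 1 of these 10 symbols, and the genes themselves were proposed with earlier results of these data known. This gave 21 of the 22690 probe sets. Of the 21, 20 were bright enough to be tested, and each of the 10 genes kept at least 1 probe set.

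Liver RNA had been measured on 14 one-colour Affymetrix mouse arrays, with 1 array per sample. The groups were 5 samples from mice given an adenovirus with a short hairpin RNA (shRNA) against Jnk1, 4 from mice given an adenovirus with an shRNA to green fluorescent protein (GFP), a protein that mice lack, and 5 from mice given vehicle. An shRNA is a folded RNA that cells process into a guide that lowers a matching messenger RNA, and Jnk1 is the stress-activated kinase encoded by Mapk8. All groups were C57BL/6J mice with diet-induced obesity, so no lean animals were measured. The sources used here give no virus dose, time, sex or age. They do not say that each sample came from a separate mouse, so p-values measure only the spread between these samples. The labels name 1 Jnk1 hairpin, so its effects on other messages cannot be told apart from loss of Jnk1.

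Insulin binds the receptor encoded by Insr, which phosphorylates the adaptor proteins IRS1 and IRS2 and so starts signalling through PI3 kinase and AKT. Growth hormone from the pituitary binds the receptor encoded by Ghr and activates the kinase JAK2 and the transcription factor STAT5, which in hepatocytes drives Igf1 and Igfals and also the feedback inhibitors Socs2 and Cish. IGF1 leaves the liver and circulates bound to binding proteins, among them those encoded by Igfbp1, Igfbp2 and Igfbp4, and insulin is known to repress Igfbp1 in hepatocytes.

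The promoters of 4 members are shown because they carry sequence known from insulin-regulated genes or belong to the member with the largest difference. Each is the run of 250 bases before the annotated start, 5′ to 3′ on the gene's strand, from RefSeq on GRCm38.p6. Capitals mark matches to the core of the insulin response sequence, CAAAACA, on either strand (TGTTTTG where it lies on the opposite one). The regions are chr1:82291440-82291689 (minus strand) for Irs1, chr8:11008930-11009179 (minus strand) for Irs2, chr11:7197537-7197786 (plus strand) for Igfbp1 and chr1:72824230-72824479 (plus strand) for the first of the Igfbp2 promoters.
Irs1: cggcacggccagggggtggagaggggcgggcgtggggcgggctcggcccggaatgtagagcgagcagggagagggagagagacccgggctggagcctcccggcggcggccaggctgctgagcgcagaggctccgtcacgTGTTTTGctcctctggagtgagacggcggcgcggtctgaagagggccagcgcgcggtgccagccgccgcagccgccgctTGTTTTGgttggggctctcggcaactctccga
Irs2: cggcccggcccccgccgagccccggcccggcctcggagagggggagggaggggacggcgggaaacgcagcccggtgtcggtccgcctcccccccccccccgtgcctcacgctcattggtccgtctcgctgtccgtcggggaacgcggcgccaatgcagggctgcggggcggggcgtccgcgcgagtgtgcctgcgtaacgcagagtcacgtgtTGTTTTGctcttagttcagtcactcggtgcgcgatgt
Igfbp1: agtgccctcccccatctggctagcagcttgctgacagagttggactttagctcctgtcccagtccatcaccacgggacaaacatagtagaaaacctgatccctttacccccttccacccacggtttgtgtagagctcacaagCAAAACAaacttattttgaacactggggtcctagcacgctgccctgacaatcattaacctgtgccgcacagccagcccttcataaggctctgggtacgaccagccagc
Igfbp2: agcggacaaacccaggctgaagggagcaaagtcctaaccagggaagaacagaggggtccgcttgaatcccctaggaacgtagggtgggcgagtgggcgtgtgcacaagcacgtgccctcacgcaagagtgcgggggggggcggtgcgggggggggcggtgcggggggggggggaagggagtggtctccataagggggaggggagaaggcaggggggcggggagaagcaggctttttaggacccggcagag

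The Irs1 promoter held 2 matches, which began at -111 and -32 from the start, the Irs2 promoter 1 at -37 and the Igfbp1 promoter 1 at -108, and the Igfbp2 promoter held none. In windows that also took in the 50 bases after the start, 6.28% of 32851 mouse promoters held this motif on either strand. The same windows were searched for the STAT5 element TTCNNNGAA, present in 8.30% of promoters, and for the FOXO element GTAAACA, present in 3.65%. RefSeq promoters were found for 8 of the 10 members, 12 in all, and 5 of the 12 held a match to any of the 3 motifs. Those 5 include the first and second promoters of the same gene, Igfals. The share of all mouse promoters with any of the 3 motifs was not computed, so the count has no background beside it. Besides those printed, the first Igfals promoter held a STAT5 element at -236, and the second held one at -58 and a FOXO element at -242. No searched motif lay in the third Igfals promoter, in the Igf1 and Igfbp4 promoters or in the Ghr and Igfbp2 promoters, of which there were 2 each. A match describes letters only, and binding was not measured.

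The hairpin was checked on Mapk8 probe set 1420932_at. It averaged 6.07 ± 0.18 in Jnk1 shRNA livers, 7.38 ± 0.09 in GFP shRNA livers and 7.47 ± 0.14 in vehicle livers (log2 intensity, SD, n = 5, 4 and 5), a difference of -1.31 ± 0.11 (SE) between the viruses (limma, adjusted p = 3.50e-07). Of the other Mapk8 probe sets, 1420931_at differed by -1.12 ± 0.22 between the viruses (adjusted p = 0.000819), while 1437045_at was not called between them (-0.12 ± 0.14, adjusted p = 0.561, groups overlapping) and fell against vehicle (-0.51 ± 0.14, adjusted p = 0.00696). Of the 8 hepatocyte markers, 7 were measured, with a summed intensity of 27564 to 29706 in Jnk1 shRNA livers, 29655 to 30681 in GFP shRNA livers and 29641 to 32224 in vehicle livers, and 2 of 7 fell against GFP shRNA and 4 of 7 against vehicle. Most measured markers of Kupffer, stellate and endothelial cells fell against GFP shRNA. The 7 measured Kupffer cell and macrophage markers summed to 1839 to 2296 with Jnk1 shRNA, 3161 to 3495 with GFP shRNA and 2292 to 3698 with vehicle, and 6 of 7 fell against GFP shRNA and 4 of 7 against vehicle. The 7 measured stellate cell markers summed to 1696 to 1898 with Jnk1 shRNA, 2453 to 2833 with GFP shRNA and 2217 to 2571 with vehicle (5 of 7 and 3 of 7 fell). The 9 endothelial markers summed to 928 to 1160 with Jnk1 shRNA, 1417 to 1716 with GFP shRNA and 1465 to 1576 with vehicle (6 of 9 fell in both). The defining stellate marker Lrat and all 6 cholangiocyte markers on the array were below the intensity filter, as were Cd3e, Cd4 and Cd8a of T cells and Adipoq of adipocytes. Of the other lists, Nkg7 and Gzma (T and NK cells) summed to 92.0 to 124 with Jnk1 shRNA and 23.9 to 45.7 with vehicle, but their vehicle means were under the intensity filter, which they passed only through the virus groups, so no call is drawn from them. Alas2 (erythroid cells) fell in both comparisons, with 105 to 182 with Jnk1 shRNA, 462 to 633 with GFP shRNA and 513 to 617 with vehicle. Fabp4 (adipocytes) was called in neither. Between GFP shRNA and vehicle livers, 1 hepatocyte marker and 2 Kupffer cell markers fell, and 1 Kupffer cell and 1 stellate cell marker rose. In whole liver, fewer cells of a type and less RNA per cell cannot be told apart. The spike-in control probe sets were lower and more variable on the Jnk1 shRNA arrays, at 8.36 ± 0.32 (log2, SD), than on the GFP shRNA arrays at 8.91 ± 0.08 and the vehicle arrays at 8.91 ± 0.10. The ratio of 3' to 5' signal of Gapdh, a measure of RNA integrity, was 0.708 to 0.758 on the Jnk1 shRNA arrays, 0.656 to 0.698 on the GFP shRNA arrays and 0.668 to 0.750 on the vehicle arrays. The deposited 18S rRNA 5' signal was 52.0, 1976, 195, 702 and 390 on Jnk1 shRNA arrays 1 to 5, against 1052 to 1567 on the GFP shRNA arrays and 851 to 1324 on the vehicle arrays. GFP shRNA array 2 stood apart, and correlated with the other GFP shRNA arrays at 0.942 on average. The part of the cell markers and of these RNA signals in the results below was not tested, except that spike-in level was added to 1 fit.

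Against GFP shRNA, 8 of the 20 probe sets fell in the Jnk1 shRNA livers and 0 rose (limma, adjusted p under 0.05). Over all 13575 tested probe sets 33.1% were called, 15.8% as lower and 17.3% as higher. The called probe sets belonged to Ghr, Igf1, Irs1, Igfbp2 and Igfbp4, while Insr, Irs2, Socs2, Igfals and Igfbp1 had none. The groups did not overlap for 7 of the 20, beside 28.1% of all tested probe sets. Against vehicle, in a comparison that shares the Jnk1 shRNA arrays, 10 of 20 fell and 0 rose, beside 37.6% of all called, 18.7% as lower and 18.9% as higher, and 8 of 20 did not overlap, beside 27.7% of all. The called probe sets again belonged to Ghr, Igf1, Irs1, Igfbp2 and Igfbp4. The median difference of the 20 probe sets was -0.11 against GFP shRNA and -0.22 against vehicle, beside -0.01 and -0.02 over all tested probe sets, and the median of the same 20 was also -0.11 in GFP shRNA minus vehicle. Between GFP shRNA and vehicle livers, limma called 0 of 20 probe sets, beside 2.58% of all, and 2 of 20 had an unadjusted p under 0.05, beside 15.3% of all.

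The counts against GFP shRNA depended on the scaling. With arrays scaled to the same median in place of quantile normalisation, Igfbp2 was the only probe set of the 20 called, and higher calls made up 72.3% of all calls, against 52.3% after quantile normalisation. With spike-in level added as a covariate, Igfbp2 was the only one of the 8 still called, and Igfbp4 probe set 1423757_x_at was added (-0.52, limma adjusted p = 0.0262). All 8 differences stayed below 0 under both. Against vehicle, median scaling gave 11 calls, with Socs2 probe set 1418507_s_at among them as higher (0.44), and the spike-in covariate gave 7. Over all tested probe sets, median scaling called 30.4% against GFP shRNA and 32.8% against vehicle. The spike-in covariate called 16% and 21.1% of all in the same order. Spike-in level was 7.89 to 8.76 on the Jnk1 shRNA arrays. It was higher on every other array, at 8.83 to 9.01 with GFP shRNA and 8.77 to 9.03 with vehicle. Spike-in level and the Jnk1 shRNA group can thus hardly be told apart. A call lost or gained in this fit does not show which of them a difference follows.

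**Figure D1:**
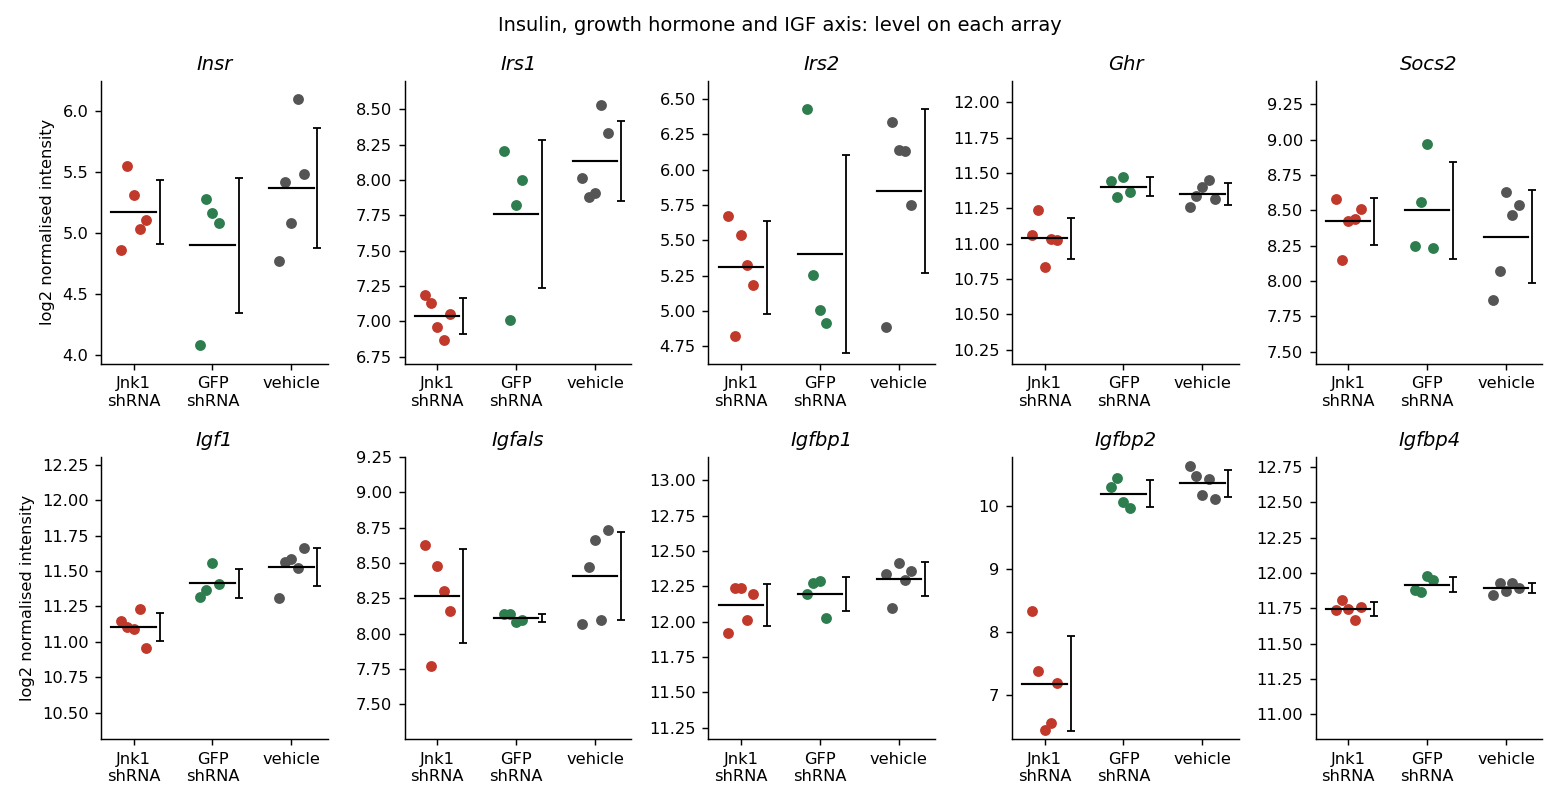
Log2 normalised intensity of each of the 10 genes on each array, by the probe set of highest mean, with Jnk1 shRNA at the left, GFP shRNA in the middle and vehicle at the right of each panel. Points are arrays, horizontal lines are group means and error bars are the SD. Igfbp2 lay between 6.45 and 8.33 in Jnk1 shRNA livers and at 9.97 or higher on all other arrays, and the Insr, Irs2 and Igfals panels overlap across the groups.

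The largest difference of the axis was in the binding protein gene Igfbp2 (chr1:72824480-72852474), which fell in the Jnk1 shRNA livers against both control groups. IGFBP2 is a circulating binding protein made mainly by the liver that limits the access of IGF1 and IGF2 to their receptor. Its only probe set, 1454159_a_at, measured 8.33, 7.37, 6.45, 6.56 and 7.19 on Jnk1 shRNA arrays 1 to 5 (log2 intensity). The same probe set measured 10.30, 10.45, 10.07 and 9.97 on GFP shRNA arrays 1, 2, 3 and 5, and 10.63, 10.47, 10.17, 10.42 and 10.11 on vehicle arrays 1 to 5. Every Jnk1 shRNA array lay below every other array. Jnk1 shRNA array 1, the highest of the 5, was also the one with the lowest spike-in level. The other Jnk1 shRNA arrays went the opposite way. Both Igfbp2 and spike-in level rose over arrays 3, 4, 5 and 2, in that order. The group means were 7.18 ± 0.76 with Jnk1 shRNA, 10.20 ± 0.22 with GFP shRNA and 10.36 ± 0.22 with vehicle (SD). The difference was -3.02 ± 0.28 (SE) against GFP shRNA, an 8.10-fold lower intensity (limma, adjusted p = 8.63e-07), and -3.18 ± 0.26 against vehicle, 9.08-fold lower (adjusted p = 1.34e-07). It kept both calls under all alternatives, with a smallest difference of -2.81 against GFP shRNA. GFP shRNA livers differed from vehicle livers by -0.17 ± 0.28 (adjusted p = 0.831).

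Among 12452 other probe sets with a gene name, the 3 genes whose profile over the 14 arrays lay nearest to that of Igfbp2 were Prodh, Slc46a3 and Masp1. The measure was the root mean square difference of profiles centred on their own mean, which was 0.36, 0.50 and 0.51 on the log2 scale, beside an SD of 1.61 for Igfbp2 itself. Prodh, which encodes the first enzyme of proline breakdown, averaged 6.33 with Jnk1 shRNA, 8.87 with GFP shRNA and 9.16 with vehicle. Slc46a3, a solute carrier of the lysosome, averaged 5.77, 7.95 and 8.17 in the same groups. Masp1, which encodes a protease of the lectin complement pathway, averaged 6.38 with Jnk1 shRNA, 8.58 with GFP shRNA and 9.11 with vehicle. All points of a profile share the array's scaling, and the order of likeness carries no test.

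Of the other 2 binding protein genes, Igfbp1 was not called and Igfbp4 fell on some of its probe sets. Igfbp1 (chr11:7197787-7202546), whose protein binds IGF1 and rises in plasma when insulin is low, measured 11.92, 12.24, 12.24, 12.01 and 12.19 on the Jnk1 shRNA arrays, 12.19, 12.27, 12.29 and 12.02 on the GFP shRNA arrays, and 12.34, 12.10, 12.42, 12.30 and 12.36 on the vehicle arrays. The groups overlapped, and the differences of -0.07 ± 0.08 from GFP shRNA (95% interval -0.24 to 0.10, limma adjusted p = 0.505) and -0.18 ± 0.08 from vehicle (-0.34 to -0.02, adjusted p = 0.0708) were not called. Igfbp1 was called as lower without quantile normalisation, at -0.35 (adjusted p = 0.0224) and -0.49 (adjusted p = 0.00125), and against vehicle with median scaling, at -0.46 (adjusted p = 0.0157). It was also called against vehicle with array weights (-0.19, adjusted p = 0.0407), without vehicle array 2 (-0.23, adjusted p = 0.0189) and without Jnk1 shRNA array 2 (-0.21, adjusted p = 0.0491).

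Igfbp4 (chr11:99040005-99052655) encodes a binding protein that inhibits IGF action until the protease PAPP-A cleaves it, and its 6 probe sets did not move alike. Probe set 1437405_a_at, the brightest, measured 11.74, 11.81, 11.75, 11.67 and 11.76 on the Jnk1 shRNA arrays, 11.88, 11.86, 11.98 and 11.95 on the GFP shRNA arrays, and 11.85, 11.93, 11.87, 11.93 and 11.90 on the vehicle arrays. Its groups did not overlap, yet the difference in the main fit was small, at -0.17 ± 0.04 against GFP shRNA (limma, adjusted p = 0.00510) and -0.15 ± 0.04 against vehicle (adjusted p = 0.00736). Both calls were lost without an intensity trend in the variances (adjusted p = 0.0521 and 0.0664) and with the spike-in covariate (-0.12 and -0.09, adjusted p = 0.235 and 0.326). The call against GFP shRNA was also lost with median scaling, at the larger difference of -0.25 (adjusted p = 0.182). Over all alternatives the differences ran from -0.41 to -0.12 against GFP shRNA and from -0.42 to -0.09 against vehicle. Probe set 1421991_a_at averaged 8.82 ± 0.32 with Jnk1 shRNA, 8.999 ± 0.15 with GFP shRNA and 9.33 ± 0.23 with vehicle (SD), and fell against vehicle by 0.51 ± 0.14 (adjusted p = 0.00823), to 70.2% of that level and under all alternatives (-0.84 to -0.42), while the difference from GFP shRNA was -0.18 ± 0.15 (adjusted p = 0.379). Probe set 1423756_s_at was called only against vehicle, at -0.13 ± 0.05 (adjusted p = 0.0486), and lost the call in 11 of the 14 fits that left out 1 array, being kept only without vehicle array 5, Jnk1 shRNA array 1 or Jnk1 shRNA array 3. The other 3 probe sets, 1437406_x_at, 1423757_x_at and 1421992_a_at, were not called in the main fit, with differences between -0.12 and -0.02 against GFP shRNA and between -0.24 and -0.08 against vehicle. Against vehicle, limma called each as lower under some alternatives. This held for 1437406_x_at without quantile normalisation (-0.33, adjusted p = 0.0383). It held for 1421992_a_at with array weights (-0.22, adjusted p = 0.0139) and without vehicle array 1 (-0.24, adjusted p = 0.0185). It held for 1423757_x_at without quantile normalisation (-0.37), with array weights (-0.32), without Jnk1 shRNA array 1 (-0.35) and with the spike-in covariate (-0.64).

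**Figure D2:**
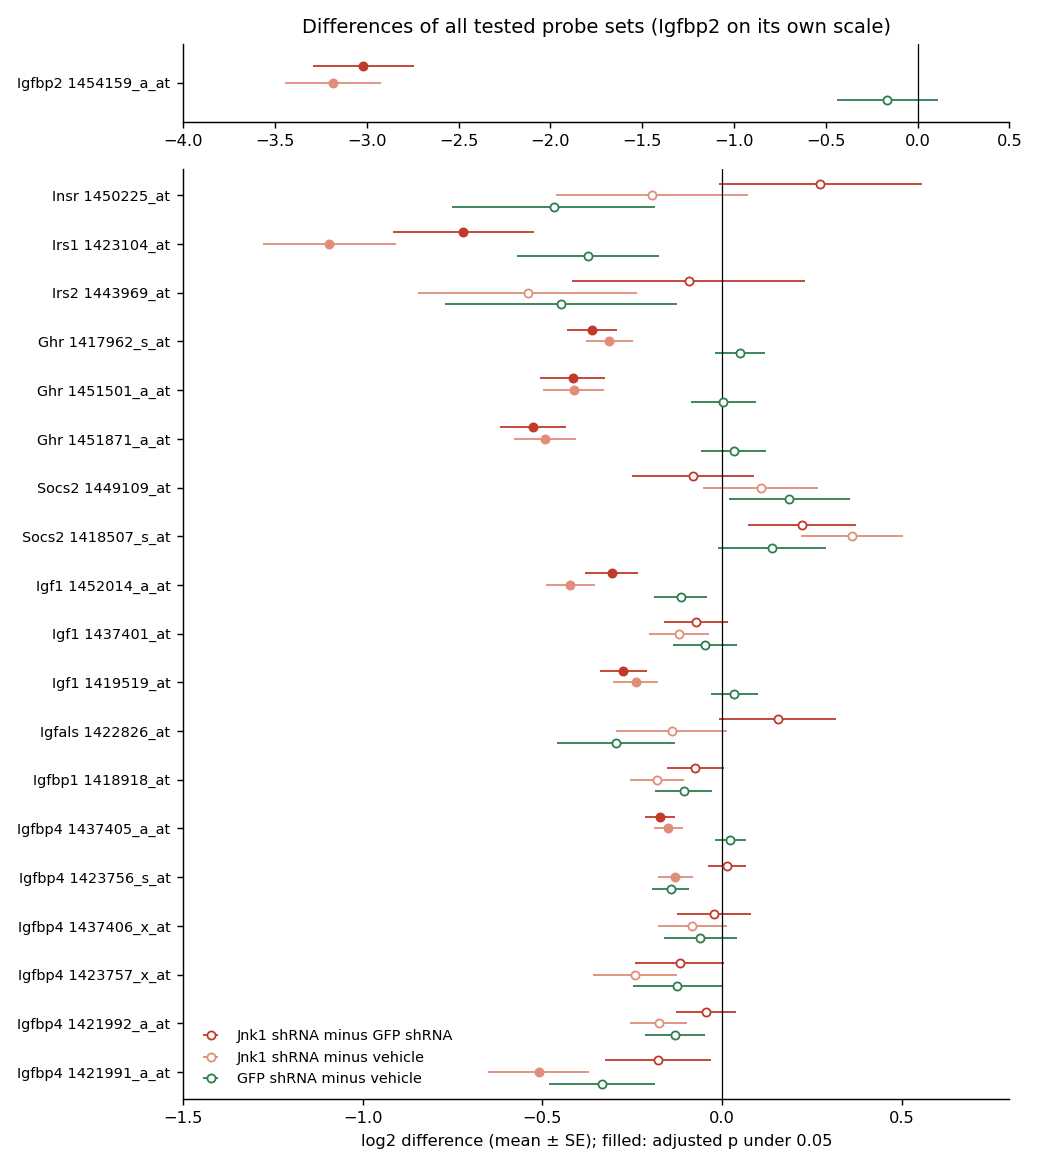
Log2 difference of each tested probe set in Jnk1 shRNA minus GFP shRNA (dark red), Jnk1 shRNA minus vehicle (light red) and GFP shRNA minus vehicle (green), with SE bars and filled points where limma's adjusted p was under 0.05. The Igfbp2 differences of -3.02 and -3.18 are drawn on their own scale. The 3 Ghr probe sets are filled in both Jnk1 comparisons, and no green point is filled.

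Of the receptor genes, Ghr fell on all of its probe sets and Insr was not called. Ghr (chr15:3317755-3583352) encodes the growth hormone receptor and, in mouse, also the soluble growth hormone binding protein by alternative splicing. Probe set 1451871_a_at measured 9.14, 9.32, 8.91, 9.23 and 9.22 on the Jnk1 shRNA arrays, 9.68, 9.68, 9.73 and 9.66 on the GFP shRNA arrays, and 9.39, 9.64, 9.69, 9.82 and 9.73 on the vehicle arrays. Probe set 1417962_s_at measured 11.06, 11.24, 10.83, 11.04 and 11.03 with Jnk1 shRNA, 11.44, 11.33, 11.47 and 11.36 with GFP shRNA, and 11.26, 11.33, 11.40, 11.45 and 11.32 with vehicle. Probe set 1451501_a_at ranged over 9.93 to 10.53 with Jnk1 shRNA, 10.63 to 10.79 with GFP shRNA and 10.59 to 10.77 with vehicle. On each of the 3 probe sets every Jnk1 shRNA array lay below every other array, and Jnk1 shRNA array 3 was the lowest.

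The Ghr differences from GFP shRNA were -0.53 ± 0.09 (1451871_a_at, limma adjusted p = 0.000326), -0.36 ± 0.07 (1417962_s_at, adjusted p = 0.000763) and -0.42 ± 0.09 (1451501_a_at, adjusted p = 0.00220). From vehicle they were -0.49 ± 0.09 (adjusted p = 0.000252), -0.31 ± 0.07 (adjusted p = 0.00117) and -0.41 ± 0.09 (adjusted p = 0.00114) in the same order of probe sets. The first of these left Ghr at 69.4% of the GFP shRNA level and 71.1% of the vehicle level. GFP shRNA and vehicle livers differed by 0.03, 0.05 and 0.00 on the log2 scale. With the spike-in covariate the differences were smaller and none was called, with adjusted p from 0.0641 to 0.149 against GFP shRNA and from 0.0709 to 0.153 against vehicle, and median scaling also lost the calls against GFP shRNA (adjusted p from 0.122 to 0.249).

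Insr (chr8:3150922-3279649), the insulin receptor gene, was close to the intensity filter, which kept probe sets down to a log2 mean of 4.83. Probe set 1450225_at measured 4.86, 5.55, 5.31, 5.04 and 5.11 with Jnk1 shRNA, 4.08, 5.28, 5.16 and 5.08 with GFP shRNA, and 4.77, 5.42, 5.08, 6.09 and 5.48 with vehicle. The groups overlapped widely. The difference was 0.27 ± 0.28 from GFP shRNA (95% interval -0.33 to 0.87, limma adjusted p = 0.488) and -0.20 ± 0.27 from vehicle (-0.76 to 0.37, adjusted p = 0.603), so changes between those bounds lie within the error. Without GFP shRNA array 1 the difference from GFP shRNA was -0.0002 (adjusted p = 0.999), and without vehicle array 4 that from vehicle was -0.01. The second Insr probe set, 1421380_at, was the 1 member probe set below the filter and was not tested, with 4.15 to 4.52 in Jnk1 shRNA livers, 3.95 to 5.43 in GFP shRNA livers and 4.13 to 4.83 in vehicle livers.

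The adaptor gene Irs1 (chr1:82233105-82291439), whose protein carries the signal from the insulin and IGF1 receptors to PI3 kinase and is itself a known substrate of JNK, fell in the Jnk1 shRNA livers. It measured 7.19, 7.13, 6.96, 6.87 and 7.05 with Jnk1 shRNA, 8.21, 7.01, 7.82 and 7.9998 with GFP shRNA, and 8.02, 7.88, 7.91, 8.53 and 8.33 with vehicle (probe set 1423104_at). Only GFP shRNA array 2, at 7.01, lay within the Jnk1 shRNA range. Against vehicle, where the groups did not overlap, the difference was -1.09 ± 0.19 (limma, adjusted p = 0.000207), or 46.9% of the vehicle level, and it kept its call under all alternatives (-1.16 to -0.95, largest adjusted p = 0.0376). Against GFP shRNA it was -0.72 ± 0.20 (adjusted p = 0.00991), or 60.7%, and -0.97 (adjusted p = 0.000156) without GFP shRNA array 2. That call was lost with median scaling (-0.56, adjusted p = 0.0686) and with the spike-in covariate (-0.58, adjusted p = 0.233). GFP shRNA livers differed from vehicle livers by -0.37 ± 0.20 (adjusted p = 0.384), and by -0.12 without GFP shRNA array 2 (adjusted p = 0.774).

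Irs2 (chr8:10984681-11008929), the adaptor that insulin itself represses in liver, varied as much within groups as between them. Probe set 1443969_at measured 5.67, 4.83, 5.54, 5.33 and 5.18 with Jnk1 shRNA, 6.43, 5.25, 5.01 and 4.91 with GFP shRNA, and 4.89, 6.33, 6.14, 6.13 and 5.75 with vehicle. GFP shRNA array 1 was the highest of the 14 and Jnk1 shRNA array 2 the lowest, vehicle array 1 was the lowest of its group, and the groups overlapped. The difference was -0.09 ± 0.32 from GFP shRNA (95% interval -0.78 to 0.59, limma adjusted p = 0.852) and -0.54 ± 0.31 from vehicle (-1.19 to 0.11, adjusted p = 0.183), and the difference from vehicle passed without vehicle array 1 (-0.78, adjusted p = 0.0370). The 3 genes of nearest profile were Efcab2, Ppp4r2 and Nr5a2, at root mean square differences of 0.32, 0.33 and 0.33 beside an SD of 0.56 for Irs2 itself.

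Of the growth hormone targets among the members, only Igf1 had called probe sets, and no test compared these genes with each other. Igf1 (chr10:87858265-87937047), which encodes the main circulating growth factor of the axis, fell on 2 of its 3 probe sets. Probe set 1452014_a_at measured 11.15, 11.10, 11.09, 11.23 and 10.96 with Jnk1 shRNA, 11.32, 11.37, 11.56 and 11.41 with GFP shRNA, and 11.31, 11.57, 11.59, 11.52 and 11.66 with vehicle. The Jnk1 shRNA arrays lay below all others, by 0.31 ± 0.07 against GFP shRNA (limma, adjusted p = 0.00428) and 0.42 ± 0.07 against vehicle (adjusted p = 0.000153), which left 80.8% and 74.6% of those levels. Probe set 1419519_at measured 9.80 to 9.88 with Jnk1 shRNA, 10.01 to 10.22 with GFP shRNA and 9.94 to 10.25 with vehicle, again without overlap, and differed by -0.27 ± 0.07 (adjusted p = 0.00460) and -0.24 ± 0.06 (adjusted p = 0.00624). The third, 1437401_at, measured 10.04 to 10.24 with Jnk1 shRNA, 10.05 to 10.40 with GFP shRNA and 10.04 to 10.53 with vehicle, and its differences of -0.07 ± 0.09 (95% interval -0.26 to 0.12) and -0.12 ± 0.08 (-0.30 to 0.06) were not called. The call of 1452014_a_at against vehicle was kept under all alternatives, while 1419519_at lost its calls with median scaling (-0.08 and -0.24, adjusted p = 0.661 and 0.134) and with the spike-in covariate (-0.27 and -0.23, adjusted p = 0.0966 and 0.122). The call of 1452014_a_at against GFP shRNA was lost with median scaling (-0.26, adjusted p = 0.221) and with the spike-in covariate (-0.34, adjusted p = 0.0610).

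Igfals (chr17:24877844-24882011), which encodes the acid-labile subunit that holds IGF1 in its long-lived plasma complex, was not called. Probe set 1422826_at measured 8.63, 7.77, 8.48, 8.30 and 8.16 with Jnk1 shRNA, 8.14, 8.14, 8.08 and 8.10 with GFP shRNA, and 8.07, 8.47, 8.66, 8.10 and 8.74 with vehicle. The GFP shRNA arrays lay within 0.1 of each other, inside the spread of both other groups. The difference was 0.15 ± 0.16 from GFP shRNA (95% interval -0.19 to 0.50, limma adjusted p = 0.499) and -0.14 ± 0.15 from vehicle (-0.47 to 0.19, adjusted p = 0.511), and with the spike-in covariate the difference from vehicle became -0.67 (adjusted p = 0.0211).

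Socs2 (chr10:95383903-95417321), the STAT5 target whose protein binds the growth hormone receptor and limits its signal, was not called in either Jnk1 comparison. Probe set 1449109_at measured 8.58, 8.15, 8.43, 8.44 and 8.51 with Jnk1 shRNA, 8.25, 8.56, 8.97 and 8.24 with GFP shRNA, and 7.86, 8.07, 8.63, 8.46 and 8.54 with vehicle. Probe set 1418507_s_at measured 8.44, 7.96, 8.13, 8.27 and 8.33 with Jnk1 shRNA, 7.85, 8.13, 8.19 and 7.84 with GFP shRNA, and 7.49, 7.55, 8.16, 7.96 and 8.16 with vehicle. The groups overlapped on both. The differences from GFP shRNA were -0.08 ± 0.17 (95% interval -0.44 to 0.28) and 0.22 ± 0.15 (-0.10 to 0.54), and from vehicle 0.11 ± 0.16 and 0.36 ± 0.14 (limma, adjusted p = 0.635 and 0.0560). The last was called as higher without vehicle array 3 (adjusted p = 0.0287), vehicle array 5 (0.0296) or Jnk1 shRNA array 2 (0.0323), without quantile normalisation (0.0250), with median scaling (0.0424) and with the stricter filter (0.0468).

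**Figure D3:**
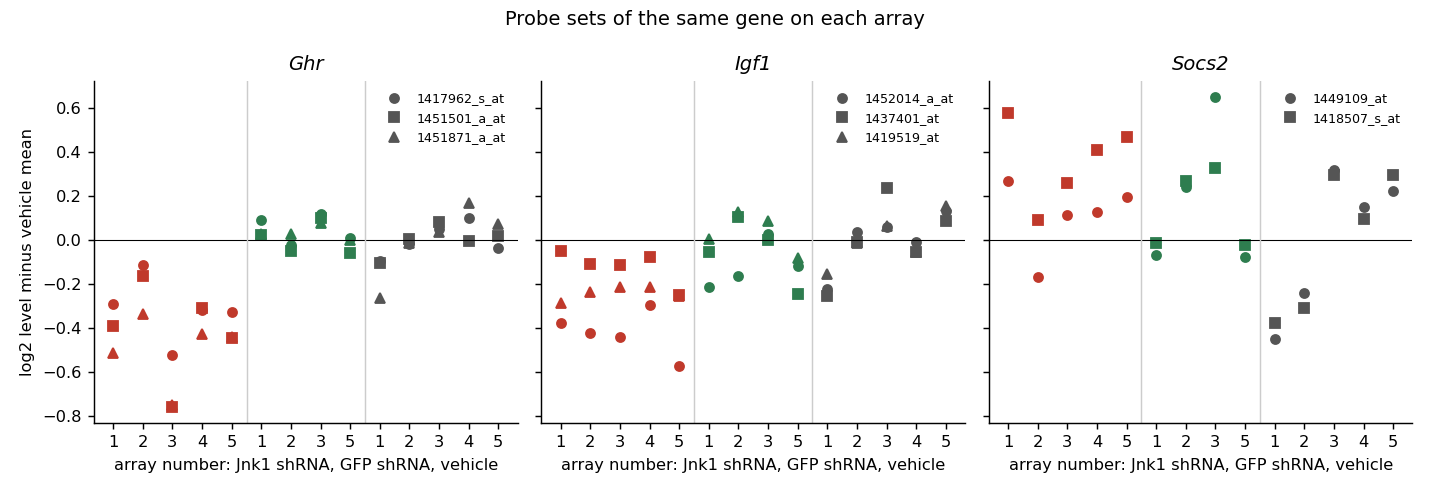
Log2 level of each probe set of Ghr, Igf1 and Socs2 on each of the 14 arrays, less the vehicle mean of that probe set, with Jnk1 shRNA arrays at the left, GFP shRNA in the middle and vehicle at the right. Marker shapes are probe sets. The 3 Ghr probe sets move together on each Jnk1 shRNA array. Igf1 probe set 1437401_at lies closer to 0 than the other 2 on the Jnk1 shRNA arrays, but not on all control arrays. The Socs2 probe sets show no drop from the vehicle mean in the Jnk1 shRNA group.

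The wider pathways were described with gene lists, each gene by its probe set of highest mean. The lists share some genes, and a gene in several lists is counted in each. Of 8027 genes, 34.1% were called between the viruses (17.7% higher and 16.5% lower) and 38.6% between Jnk1 shRNA and vehicle (19.3% in each direction), so the list counts are read beside those shares. Between GFP shRNA and vehicle livers 2.8% were called, 2.18% as higher and 0.623% as lower. The 2 Jnk1 comparisons share their Jnk1 shRNA arrays.

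Of 29 measured genes of insulin signalling, 4 rose and 6 fell against GFP shRNA, and 5 rose and 9 fell against vehicle, with medians of -0.10 and -0.02. With the spike-in covariate 1 rose and 1 fell against GFP shRNA, and 3 rose and 1 fell against vehicle, and with median scaling the numbers that fell were 2 and 5. Pik3r1, the main regulatory subunit of PI3 kinase, averaged 7.05 ± 0.18 with Jnk1 shRNA, 7.96 ± 0.41 with GFP shRNA and 7.98 ± 0.39 with vehicle, and fell by 0.91 ± 0.20 (limma, adjusted p = 0.00209) and 0.93 ± 0.19 (adjusted p = 0.000882). Foxo3, a transcription factor that AKT holds out of the nucleus, fell by 1.24 ± 0.30 and 1.49 ± 0.29 (adjusted p = 0.00497 and 0.000589). Prkci, an atypical protein kinase C, rose by 0.68 ± 0.09 and 0.74 ± 0.08 (adjusted p = 2.50e-05 and 3.72e-06), Gsk3a, a glycogen synthase kinase, by 0.76 ± 0.16 and 0.72 ± 0.15 (adjusted p = 0.00163 and 0.00115), and Mtor, the growth kinase, by 0.40 ± 0.09 and 0.53 ± 0.09 (adjusted p = 0.00428 and 0.000201). Grb2, an adaptor to the RAS pathway, rose by 0.53 ± 0.09 against vehicle (adjusted p = 0.000230). It was also called as higher against GFP shRNA (0.34), but not with the spike-in covariate (0.22, limma adjusted p = 0.335). With the spike-in covariate Pik3r1 (-0.85 and -0.87), Foxo3 (-0.82 and -1.07) and Gsk3a (0.66 and 0.63) lost both calls, with adjusted p from 0.0619 to 0.265, as did Mtor against GFP shRNA (0.37, adjusted p = 0.116) and Grb2 against vehicle (0.41, adjusted p = 0.0575). No gene of the list was called by limma between GFP shRNA and vehicle livers.

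The list of insulin-responsive liver genes mixes genes that insulin induces with genes that it represses. Of 12 measured, 4 rose and 2 fell against GFP shRNA, and 3 rose and 3 fell against vehicle, with medians of 0.26 and 0.02. The number that fell was 1 against GFP shRNA without GFP shRNA array 1 or Jnk1 shRNA array 3, and 5 against vehicle without vehicle array 1 or GFP shRNA array 1, and with the spike-in covariate it was 1 in both. Pdk4, which encodes a kinase that shuts off pyruvate dehydrogenase and is repressed by insulin, averaged 7.49 ± 0.59 with Jnk1 shRNA, 4.94 ± 0.53 with GFP shRNA and 5.28 ± 0.25 with vehicle, and rose by 2.55 ± 0.28 and 2.21 ± 0.27 (limma, adjusted p = 5.45e-06 and 7.39e-06). Angptl4, a lipoprotein lipase inhibitor, rose by 1.04 ± 0.17 and 1.31 ± 0.16 (adjusted p = 0.000271 and 1.16e-05), and Trib1, a pseudokinase that restrains lipogenesis, fell by 1.71 ± 0.35 and 1.91 ± 0.33 (adjusted p = 0.00135 and 0.000239). The gluconeogenic gene Fbp1 rose by 0.26 ± 0.05 and 0.24 ± 0.05 (adjusted p = 0.000861 and 0.000800), but without quantile normalisation its differences were -0.05 and -0.12, and with median scaling 0.11 and -0.09, none of them called. Pck1, another gluconeogenic gene, named after its values were seen, fell by 0.53 ± 0.11 against vehicle (adjusted p = 0.00139), at -0.59 with median scaling and -0.29 (adjusted p = 0.263) with the spike-in covariate, and its difference from GFP shRNA was -0.17 ± 0.12 (adjusted p = 0.293). The gluconeogenic gene G6pc, also named after its values were seen, went the other way and was called as higher against GFP shRNA (0.77), but not against vehicle. It measured 0.87 with median scaling (limma adjusted p = 0.0303) and 1.18 with the spike-in covariate (limma adjusted p = 0.0328). That call was lost without GFP shRNA array 2 or GFP shRNA array 5. Srebf1, also named after its values were seen, was called as lower against GFP shRNA (-0.48) and vehicle (-0.68). The call against GFP shRNA was lost without GFP shRNA array 1 or Jnk1 shRNA array 3 and with median scaling (-0.25, limma adjusted p = 0.270). The call against vehicle was kept with each array left out in turn. With the spike-in covariate both were lost (-0.41 and -0.61, limma adjusted p = 0.299 and 0.0941). Between GFP shRNA and vehicle livers, Ppargc1a (-0.60 ± 0.14, adjusted p = 0.0343) and Lpin1 (-0.76 ± 0.19, adjusted p = 0.0473) fell, but Ppargc1a lost its call without any 1 of vehicle arrays 2, 4 and 5 and GFP shRNA arrays 2, 3 and 5 (largest adjusted p = 0.125), and Lpin1 kept its call only without vehicle array 1, GFP shRNA array 1 or GFP shRNA array 3 (largest adjusted p = 0.167).

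Of 12 measured genes of growth hormone signalling, 0 rose and 2 fell in both Jnk1 comparisons, with medians of -0.25 and -0.17. Cish, a feedback inhibitor induced by STAT5, averaged 8.36 ± 0.21 with Jnk1 shRNA, 9.18 ± 0.22 with GFP shRNA and 9.54 ± 0.14 with vehicle. It fell by 0.81 ± 0.12 (limma, adjusted p = 7.96e-05) and 1.17 ± 0.11 (adjusted p = 6.84e-07), and both calls held with the spike-in covariate (adjusted p = 0.0104 and 0.000480) and with median scaling (adjusted p = 0.00192 and 1.17e-06). Bcl6, a repressor that growth hormone lowers in mouse liver, fell by 1.23 ± 0.29 (adjusted p = 0.00438) and 1.35 ± 0.28 (adjusted p = 0.00109), and lost both calls with the spike-in covariate at nearly the same size (-1.18 and -1.31, adjusted p = 0.110 and 0.0599). The other 10 genes were not called in either comparison, and without GFP shRNA array 1, 1 gene rose against GFP shRNA.

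Of the other genes of the IGF system, 10 of 17 on the array were measured. Against GFP shRNA 3 rose and 3 fell, and against vehicle 2 rose and 3 fell, with medians of -0.10 and -0.29, and without GFP shRNA array 3 only 1 fell against GFP shRNA. Igf2, the fetal growth factor, averaged 7.24 ± 0.46 with Jnk1 shRNA, 4.69 ± 1.14 with GFP shRNA and 4.39 ± 1.26 with vehicle, a difference of 2.55 ± 0.57 and 2.85 ± 0.54. Igf2bp3, an RNA-binding protein of fetal tissues, averaged 5.41, 4.48 and 4.70 in the same groups. Both genes lay below the filter level of 4.83 in the control groups and passed it only through the Jnk1 shRNA arrays, so no call is drawn from them, and they make up 2 of the 3 genes counted as higher against GFP shRNA and 1 of the 2 against vehicle. Igf1r in both comparisons, and Igfbp5 against GFP shRNA, also had 1 group mean below that level. All of these genes are included in the medians. Igf2r, the receptor that clears IGF2, rose by 0.45 ± 0.09 and 0.47 ± 0.09 (adjusted p = 0.00127 and 0.000420), and Lrp1, an endocytic receptor reported to bind IGFBP3, fell by 0.69 ± 0.11 and 0.86 ± 0.10 (adjusted p = 0.000130 and 5.90e-06). Igfbp7, an IGF binding protein-related gene of vessels and stellate cells, fell by 0.44 ± 0.13 against GFP shRNA (adjusted p = 0.0195), a call lost without GFP shRNA array 1, GFP shRNA array 3 or Jnk1 shRNA array 4. It also fell against vehicle (-0.35), a call lost in 7 of the 14 fits that left out 1 array. Adamts1, a secreted protease, fell by 0.74 ± 0.19 against vehicle (adjusted p = 0.00502), a call lost with the spike-in covariate although the difference was -0.83 (adjusted p = 0.0713). It also fell against GFP shRNA (-0.60), a call lost in 5 of the 14 fits that left out 1 array. Markers of endothelial and stellate cells fell in the same livers, as given above. No gene of this list or of growth hormone signalling was called by limma between GFP shRNA and vehicle livers, though 1 growth hormone signalling gene rose without GFP shRNA array 1.

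In mice the pulses of growth hormone in males and its steadier level in females set apart liver genes of higher expression in 1 sex, through STAT5. The sex of these mice is not given in the sources used here, so the lists name gene classes, not the animals. Of 14 measured genes listed as higher in male liver, 8 fell and 2 rose in both Jnk1 comparisons, with medians of -0.74 against GFP shRNA and -0.78 against vehicle. Susd4, a complement regulator, fell by 1.85 ± 0.19 and 2.10 ± 0.18 (limma, adjusted p = 3.00e-06 and 2.46e-07), Serpina12, the adipokine vaspin, by 1.31 ± 0.17 and 1.44 ± 0.16 (adjusted p = 1.92e-05 and 2.60e-06), and the terminal complement gene C8b by 0.87 ± 0.15 and 1.00 ± 0.14 (adjusted p = 0.000306 and 3.45e-05). C6, another terminal complement gene, fell by 0.62 ± 0.11 against GFP shRNA (adjusted p = 0.000323), and was also called as lower against vehicle (-0.56). The 2 genes that rose were Cyp4a12a, a fatty acid hydroxylase named after its values were seen (1.06 ± 0.20 and 0.99 ± 0.19), and Gstp1, a glutathione transferase (0.16 ± 0.05 and 0.36 ± 0.05), whose difference turned to -0.28 (called as lower, adjusted p = 0.0346) and -0.07 without quantile normalisation and to -0.11 and -0.04 with median scaling. Its call against GFP shRNA was also lost without GFP shRNA array 3 (adjusted p = 0.0545). With the spike-in covariate 5 of the 14 fell in both comparisons. Between GFP shRNA and vehicle livers Gstp1 alone was called (0.21 ± 0.05, adjusted p = 0.0306), a call lost without any 1 of vehicle arrays 3, 4 and 5 and GFP shRNA arrays 1, 2 and 5 (largest adjusted p = 0.106).

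Of 14 genes on the array listed as higher in female liver, 6 were below the filter, and of the 8 measured, 5 rose and 0 fell in both Jnk1 comparisons, with medians of 1.14 and 1.47. Cyp2b9, a cytochrome P450 of female mouse liver, averaged 9.83 ± 0.55 with Jnk1 shRNA, 6.38 ± 0.49 with GFP shRNA and 6.21 ± 0.83 with vehicle, and rose by 3.45 ± 0.37 (limma, adjusted p = 4.08e-06) and 3.61 ± 0.35 (adjusted p = 7.41e-07). Cyp17a1, a steroid hydroxylase, rose by 1.89 ± 0.27 and 1.76 ± 0.25 (adjusted p = 5.48e-05 and 4.19e-05), Cyp39a1, an oxysterol hydroxylase, by 1.54 ± 0.22 and 1.38 ± 0.20 (adjusted p = 5.06e-05 and 5.72e-05), and Abcd2, a peroxisomal fatty acid transporter, by 1.31 ± 0.31 against GFP shRNA (adjusted p = 0.00385). Cyp2b10, also a target of the xenobiotic receptor CAR, averaged 6.92 ± 0.33 with Jnk1 shRNA, 5.96 ± 0.47 with GFP shRNA and 5.01 ± 0.38 with vehicle, a rise of 1.91 ± 0.22 against vehicle (adjusted p = 5.74e-06). It was also the 1 gene of the list called between GFP shRNA and vehicle livers (0.95 ± 0.24, adjusted p = 0.0460), a call kept only without vehicle array 1, GFP shRNA array 2, Jnk1 shRNA array 1 or Jnk1 shRNA array 2 (largest adjusted p = 0.164). The calls of the 5 genes in both Jnk1 comparisons were kept with the spike-in covariate (adjusted p of Cyp2b9 0.00171 and 0.000683) and with median scaling.

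**Figure D4:**
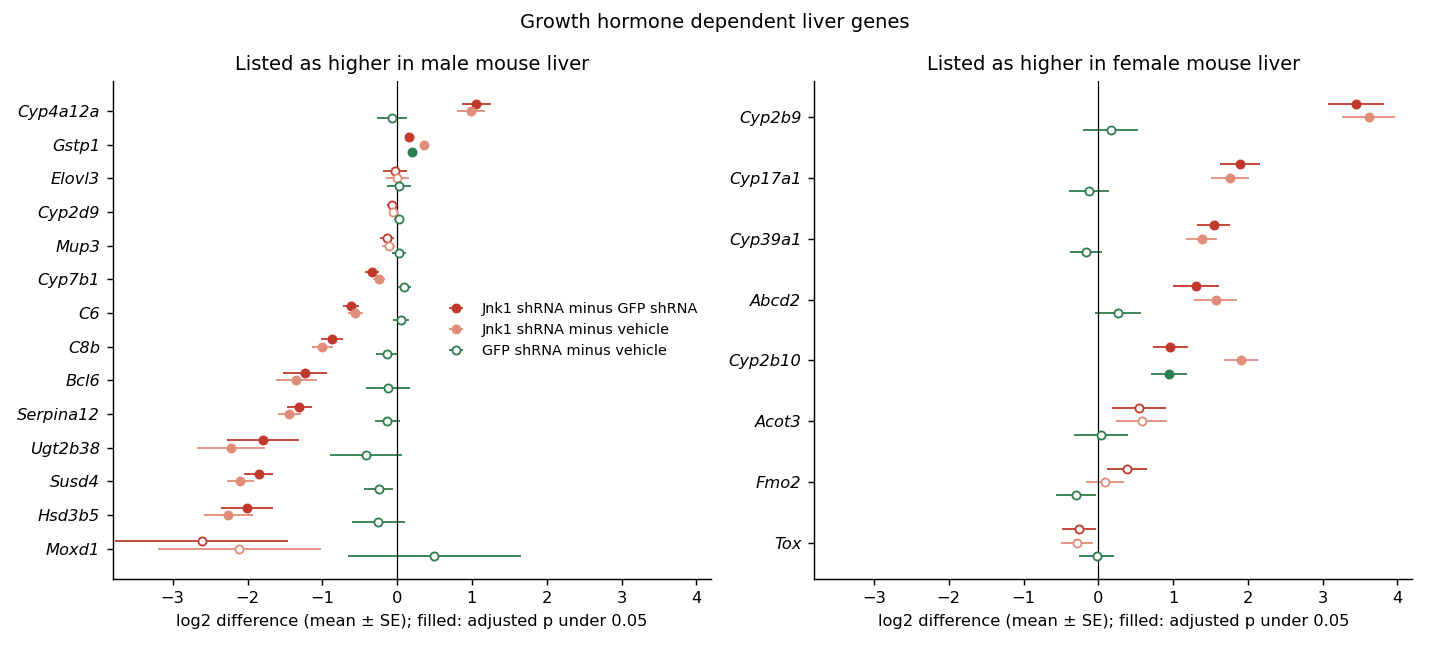
Log2 difference of the measured growth hormone dependent liver genes in Jnk1 shRNA minus GFP shRNA (dark red), Jnk1 shRNA minus vehicle (light red) and GFP shRNA minus vehicle (green), with SE bars and filled points where limma's adjusted p was under 0.05. The left panel holds the 14 genes listed as higher in male liver, of which 8 fell, and the right panel the 8 listed as higher in female liver, of which 5 rose.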

How the data were processed

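Per the labels' protocols, total RNA from pulverized liver was extracted on Qiagen RNeasy columns and biotin-labelled. The authors deposited linear probe set intensity values, scaled to a common trimmed mean. The software behind them is not given in the sources used here. Array medians spanned 0.48 on the log2 scale, so the intensities were quantile normalised, floored at the 5th percentile (2.01) and log2 transformed. The 64 control probe sets and the 40% of the other 22626 with the lowest mean were left out, which kept 13575, with a lowest mean intensity of 28.4. Symbols came from the platform annotation of the array, and the 691 probe sets with more than 1 symbol were left unnamed.

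Differences were fitted with limma 3.58.1 in R 4.3.3 over 3 group means, with an intensity trend and Benjamini-Hochberg adjustment over 13575 probe sets. The fit was tested on simulated data. The labels do not say that replicate numbers pair the samples, so the main fit did not use them as pairs. All member probe sets are named, as are the nearest profiles of Igfbp2 and Irs2 and, per pathway list, up to 4 called genes with the smallest p. Members and lists were chosen with earlier results of these data known. Normalisation, floor, filter, variance model, array weights, groups in the fit, probe sets per gene, replicate block, spike-in covariate and each array were varied. The number of arrays limits the precision.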

Additional observations from a re-analysis of the deposited data

Results flagged for a closer look

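In 60 groups of arrays over the 20 tested probe sets, 3 held an array far from the others of its group, where chance flags about 1 group in 20. Insr probe set 1450225_at measured 4.08 on GFP shRNA array 1, with the nearest of the other GFP shRNA arrays at 5.08, and both values are near the intensity filter. GFP shRNA array 2 was low on 2 Igfbp4 probe sets, at 11.3 for 1437406_x_at with the nearest other at 11.72, and at 10.42 for 1421992_a_at with the nearest other at 10.67.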

How the results depend on the processing

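The 60 differences were recomputed under 27 alternatives, 14 of which left out 1 array. Of 1584 values, 1522 kept their side of the threshold, 37 lost a call, 24 gained one and 1 changed sign and was called: Igfbp4 probe set 1423756_s_at, at -0.22 (limma, adjusted p = 0.0432) in Jnk1 shRNA minus GFP shRNA without quantile normalisation. Among the 1522, 48 changed sign without a call either way. Without 1 array, the number of called member probe sets was 8 to 8 in Jnk1 shRNA minus GFP shRNA, 9 to 11 in Jnk1 shRNA minus vehicle and 0 to 0 in GFP shRNA minus vehicle. Jnk1 shRNA minus GFP shRNA gave 1 call with median scaling and 2 with the spike-in covariate, beside 30.4% and 16% of all tested probe sets. With 1 probe set per gene, which leaves 10 to test, it gave 5 calls, beside 34.8% of all. Jnk1 shRNA minus vehicle also gave 5 with 1 probe set per gene, beside 39% of all. Median scaling put the median of all probe sets at -0.11 in GFP shRNA minus vehicle. With GFP shRNA array 2 and Jnk1 shRNA array 1 both left out, an alternative chosen after seeing the data, no called member lost its call. Of 972 list counts, 90 moved by over 1.5 times. The causes were not tested.

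With the replicate number as a block, 8 and 9 member probe sets were called in the Jnk1 comparisons with GFP shRNA and vehicle, and 0 between GFP shRNA and vehicle. Over all tested probe sets the shares called were 30.2%, 35.5% and 1.82%. Same-numbered arrays correlated at -0.24 to 0.12 after group means were removed. Such correlations over so few arrays cannot exclude a pairing, and the labels do not state one.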
